A study of Mus musculus with 36 samples.

Results

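The 10 genes described here, Hspa5, Pdia4, Sdf2l1, Dnajb9, Creld2, Herpud1, Xbp1, Atf4, Ddit3 and Atf3, belong to the response of cells to stress of the endoplasmic reticulum (ER), measured here in mouse liver. They were chosen by name. A probe was taken when its gene name in the scanner files, or the current symbol found through its accession, was one of the 10. All 10 were in the value table, through 12 of its 21781 probes, with 3 probes for Dnajb9 and 1 for each of the other genes. The table holds 13042 named genes in all.

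Livers came from 36 adult male mice, of the strain C57BL/6J in the sample labels and C57BL/6JOlaHsd in the study's methods, which all received a mild-high-fat diet with 30% of energy as fat, for an adaptation of 3 weeks according to the sample labels. The study's methods give a shorter adaptation. The 12 mice of the t=0 group were killed directly after the adaptation. Of the others, 12 mice stayed on that diet for 12 weeks (HF, the control group) and 12 received it with 0.33% (w/w) quercetin, a plant flavonol, for 12 weeks (HF-Q, the quercetin group). Each mouse had 1 array, on which its own Cy5-labelled RNA was set against a Cy3-labelled pool. The study's methods give a short fast before killing for the mice of the 12-week groups, and they do not describe the t=0 group. No group on a low-fat diet was measured here. The t=0 mice differ from the others in 12 weeks of feeding, in age and in the day of killing, and these cannot be told apart.

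Secreted and membrane proteins are folded in the ER. When unfolded proteins build up there, the sensors IRE1 (Ern1), PERK (Eif2ak3) and ATF6 start the unfolded protein response. IRE1 splices the Xbp1 mRNA, PERK slows translation while the translation of Atf4 rises, and ATF6 is cut by Golgi proteases, after which XBP1, ATF4 and ATF6 switch on genes for chaperones, for the degradation of misfolded proteins and for amino acid metabolism. Hepatocytes secrete most plasma proteins and hold a large ER, and in liver the response is also engaged by feeding and by lipid load.

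All 12 probes were well above background in Cy5 on all 36 arrays and none was saturated. Atf3 was the dimmest, with a Cy5 signal of 3.87 times its background, and Hspa5 the brightest, with 1999 times. All 6 hepatocyte markers in the table were well above background on all 36 arrays. A pair of arrays stood apart. In HF replicate 5 the pancreatic acinar markers reached log2 levels of 20.32 (Cel), 20.27 (Cpa1), 20.22 (Pnlip) and 16.36 (Ctrb1), and the highest level of any of these 4 genes in the t=0 and HF-Q livers was 10.71. On the array of HF-Q replicate 2, 96.7% of the spots were well above background in Cy5, against 56.4% to 67.4% on the other 35. Counts of calls against t=0 are therefore also given without HF replicate 5 and, where they then differed, without HF-Q replicate 2. Each of the 9 slides held 4 arrays and livers of all 3 groups.

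The promoters of Hspa5, Creld2, Sdf2l1 and Pdia4, whose levels varied most closely together, and of Herpud1, chosen because it held a match, are shown first, because several genes of this response are known to share the ER stress element (ERSE), bound by ATF6 with NF-Y. The 250 bases before the transcription start were taken from RefSeq (build GRCm38.p6) and are written 5′ to 3′ in the direction of the gene. Both strands were searched for 4 motifs, ERSE (CCAAT and CCACG with 9 bases between them), ERSE-II (ATTGG and CCACG with 1 base between them), the core TGACGTG of the unfolded protein response element, and the C/EBP-ATF response element TGATGNAA, and capitals mark the matches.
Hspa5, chr2:34771840-34772089, plus strand: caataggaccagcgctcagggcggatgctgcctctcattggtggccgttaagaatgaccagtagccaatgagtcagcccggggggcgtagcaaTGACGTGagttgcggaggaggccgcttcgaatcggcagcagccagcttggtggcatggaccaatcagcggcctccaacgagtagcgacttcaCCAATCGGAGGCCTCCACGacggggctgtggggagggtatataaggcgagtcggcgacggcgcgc
Creld2, chr15:88819396-88819645, plus strand: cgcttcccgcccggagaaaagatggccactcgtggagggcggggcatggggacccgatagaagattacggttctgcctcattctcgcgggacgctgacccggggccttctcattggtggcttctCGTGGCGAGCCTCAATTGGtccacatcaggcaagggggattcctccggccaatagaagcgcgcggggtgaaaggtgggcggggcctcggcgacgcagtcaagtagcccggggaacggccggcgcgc
Herpud1, chr8:94386179-94386428, plus strand: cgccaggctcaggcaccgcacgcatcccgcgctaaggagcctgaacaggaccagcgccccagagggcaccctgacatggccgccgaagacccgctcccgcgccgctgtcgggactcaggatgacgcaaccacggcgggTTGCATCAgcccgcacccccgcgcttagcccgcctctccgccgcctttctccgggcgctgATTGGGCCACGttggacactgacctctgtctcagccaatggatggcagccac
Sdf2l1, chr16:17132384-17132633, minus strand: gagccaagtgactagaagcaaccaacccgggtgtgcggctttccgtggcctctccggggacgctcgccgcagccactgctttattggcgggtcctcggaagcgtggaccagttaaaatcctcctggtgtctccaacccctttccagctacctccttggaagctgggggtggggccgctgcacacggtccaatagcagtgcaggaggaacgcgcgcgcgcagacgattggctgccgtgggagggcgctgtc
Pdia4, chr6:47813513-47813762, minus strand: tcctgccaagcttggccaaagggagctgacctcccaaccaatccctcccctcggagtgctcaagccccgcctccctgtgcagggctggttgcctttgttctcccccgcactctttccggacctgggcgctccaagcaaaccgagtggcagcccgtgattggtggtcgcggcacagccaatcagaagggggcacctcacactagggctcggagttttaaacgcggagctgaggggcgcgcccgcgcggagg

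Hspa5 held ERSE at 65 to 47 bases before its start and the TGACGTG core at 157 to 151. Creld2 held ERSE on the reverse strand at 126 to 108, and Herpud1 held ERSE-II at 52 to 42 and TGATGNAA on the reverse strand at 112 to 105. Sdf2l1 and Pdia4 held none of these exact letters in the window. Of the other 5 genes only Atf3 held a match, TGATGNAA on the reverse strand at 110 to 103. Over all 32851 windows of this length, ERSE occurred in 0.113%, ERSE-II in 0.0304%, TGACGTG in 1.65% and TGATGNAA in 3.45%. A match is a description of these letters and not a measured binding site.

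All levels below are log2 values of the authors' table, in which each array has the same median. A gene was called higher or lower when its Benjamini-Hochberg adjusted p over all 21781 probes was under 0.05 in limma, and Dnajb9 is given by its brightest probe unless stated. Whether a change in bulk liver RNA comes from fewer cells of a type or from less RNA per cell cannot be told apart.

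After 12 weeks on the mild-high-fat diet, 7 of the 10 genes were higher in the HF group than at t=0 and none was lower. Of all 21781 probes tested, 21.3% were called in this comparison, 10.9% higher and 10.4% lower. The median log2 fold change of the 10 genes was 0.46, against -0.01 over all probes. Creld2 and Sdf2l1 rose most. Without HF replicate 5 the same 7 genes were called, with rises of 0.28 to 1.06 and adjusted p from 0.000506 to 0.0247. In the quercetin group 5 of the 10 genes were higher than at t=0 and none was lower, against 6.62% of all probes called higher and 5.3% called lower. Between the quercetin and the control group none of the 10 was called, against 2.36% of all probes, 1.49% higher and 0.863% lower. At an unadjusted p under 0.05 there were 5 of 10 in that comparison, beside 3359 of all 21781 probes, and the methods' t-test with the same adjustment called 0 as well. Without HF-Q replicate 2 the counts were again 5 against t=0 and 0 against HF. The comparisons share their groups, so their values are set side by side below.

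**Figure D1:**
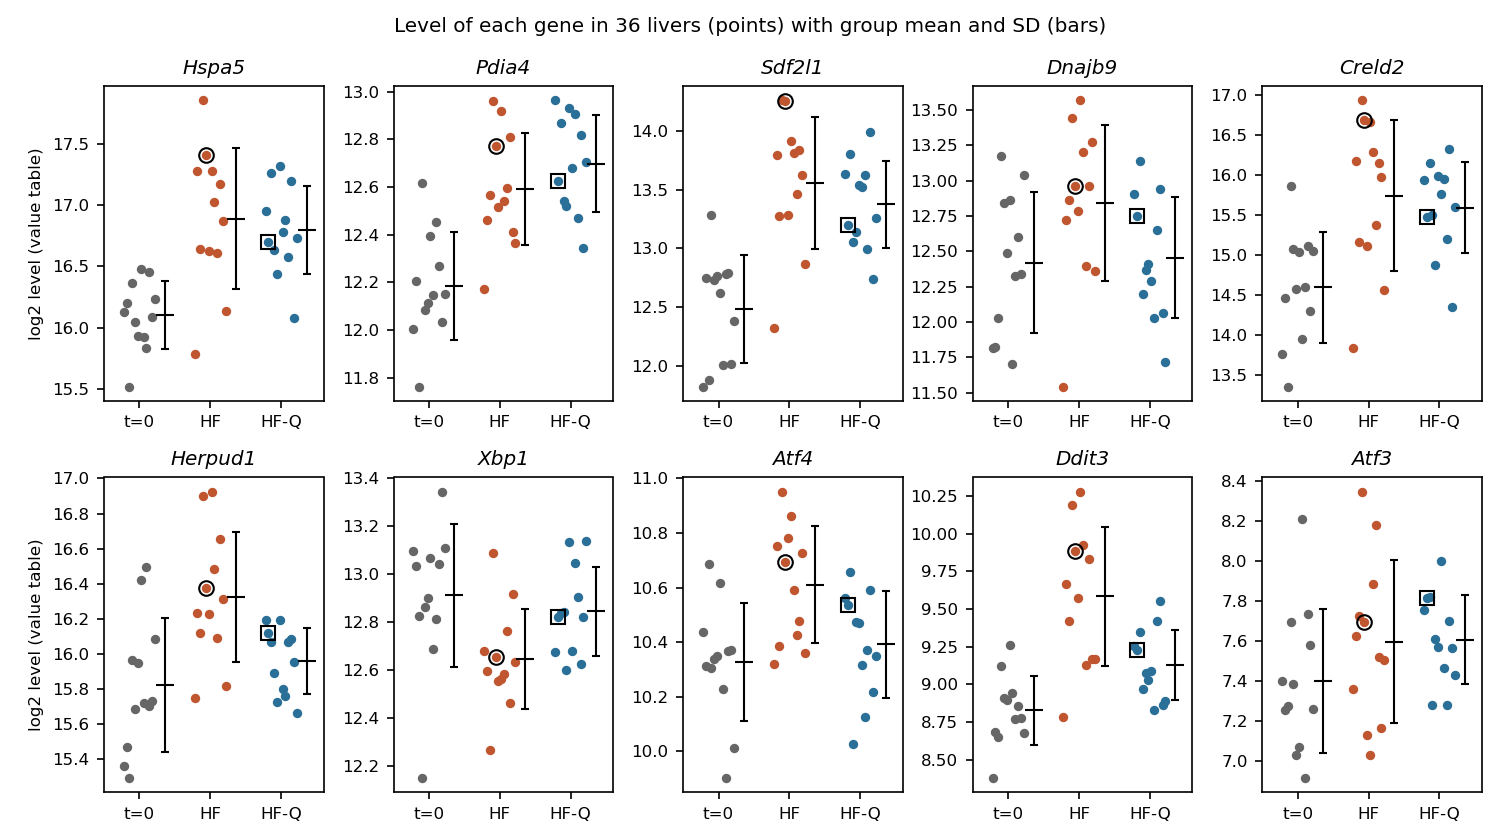
Log2 level (vertical axis) of each of the 10 genes in 12 livers of t=0, HF and HF-Q, 1 point per liver, with the group mean and SD beside the points. A circle marks HF replicate 5 and a square HF-Q replicate 2. Most HF points of Hspa5, Sdf2l1 and Creld2 lie above most t=0 points, and the HF-Q points of Ddit3 and Herpud1 all lie below the HF median.

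Among the ER chaperones, Hspa5 encodes BiP, the abundant Hsp70 chaperone of the ER lumen that also holds the sensors inactive (probe A_51_P395098, mm8 chr2:34598119-34598178, plus strand). Its lowest, median and highest levels were 15.52, 16.11 and 16.48 at t=0, 15.78, 16.95 and 17.85 in HF, and 16.08, 16.76 and 17.32 in HF-Q. In each of the 12-week groups 10 of 12 livers lay above the highest t=0 liver, so the ranges overlapped through HF replicates 1 and 12 and through HF-Q replicates 5 and 11. Hspa5 was 1.73-fold higher in HF than at t=0 (log2 fold change 0.79, SE 0.17, adjusted p = 0.00158, limma) and 1.62-fold higher in HF-Q than at t=0 (log2 fold change 0.69, SE 0.12, adjusted p = 0.000532). The difference of HF-Q from HF was not called, with a log2 fold change of -0.10 and a 95% confidence interval of -0.46 to 0.27. The HF mean was the higher one on 8 of 9 slides against t=0, and without HF replicate 5 the rise over t=0 was 0.74 (adjusted p = 0.00272).

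Creld2 encodes an ER-resident protein induced by ER stress (probe A_51_P122246, mm8 chr15:88654333-88654392, plus strand). Its levels were 13.35, 14.59 and 15.86 at t=0, 13.83, 16.06 and 16.93 in HF, and 14.34, 15.68 and 16.32 in HF-Q. The groups overlapped, with 7 of 12 HF livers and 5 of 12 HF-Q livers above the highest t=0 liver, and HF replicate 1 was the lowest of its group. The rise over t=0 was 2.22-fold in HF (log2 fold change 1.15, SE 0.31, adjusted p = 0.00899) and 2.00-fold in HF-Q (log2 fold change 1.00, SE 0.23, adjusted p = 0.00642). Creld2 had the widest spread of the 10 genes, with an SD of 0.94 in HF, 0.69 at t=0 and 0.57 in HF-Q.

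Sdf2l1 encodes a soluble ER protein that works with BiP and its J-domain partners (probe A_51_P280446, mm8 chr16:17043896-17043955, minus strand). Levels ran from 11.82 over a median of 12.68 to 13.28 at t=0, from 12.32 over 13.71 to 14.26 in HF, and from 12.74 over 13.39 to 13.99 in HF-Q. HF replicates 4 and 5 were the highest livers of all, at 14.26 and 14.25, while HF replicates 1, 3 and 12 and 6 of 12 HF-Q livers fell inside the t=0 range. The rise was 2.10-fold in HF (log2 fold change 1.07, SE 0.19, adjusted p = 0.000301) and 1.85-fold in HF-Q (log2 fold change 0.89, SE 0.16, adjusted p = 0.000543), and the t=0 mean was the lower one on 9 of 9 slides in both. Without HF replicate 5 the first was 1.01 (adjusted p = 0.000506).

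Pdia4 encodes ERp72, a protein disulphide isomerase of the ER (probe A_51_P328300, mm8 chr6:47726103-47726162, minus strand). Its levels were 11.76, 12.15 and 12.62 at t=0, 12.17, 12.55 and 12.96 in HF, and 12.35, 12.69 and 12.96 in HF-Q. Every liver of both 12-week groups lay above the t=0 median, although the ranges overlapped. The rise over t=0 was 1.32-fold in HF (adjusted p = 0.00224) and 1.43-fold in HF-Q (adjusted p = 0.000301). Pdia4 was the only gene of the 10 called against t=0 whose mean was higher in HF-Q than in HF. That difference was 0.11 on the log2 scale and was not called (95% confidence interval -0.07 to 0.29).

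Dnajb9 encodes ERdj4, a J-domain partner of BiP, and its 3 probes did not all pass the test. The brightest (A_51_P198835, mm8 chr12:45076612-45076671, minus strand) gave 11.70, 12.41 and 13.17 at t=0, 11.54, 12.91 and 13.57 in HF, and 11.72, 12.39 and 13.14 in HF-Q. The groups overlapped widely and HF replicate 1 was the lowest liver of all 36. Its log2 fold change of HF over t=0 was 0.42 (SE 0.20, adjusted p = 0.127). The other probes gave 0.46 (adjusted p = 0.0288) and 0.73 (adjusted p = 0.00173), and without HF replicate 1 the brightest gave 0.54 (adjusted p = 0.028). Against t=0 the HF-Q group had 0.03 for the brightest probe and 0.08 and 0.41 for the others, with adjusted p of 0.928, 0.791 and 0.0747. The 3 probes varied together over the livers, with Pearson r from 0.854 to 0.955 after the group means were removed.

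Herpud1 encodes HERP, a membrane protein of the ER that takes part in ER-associated degradation (probe A_51_P434101, mm8 chr8:97284346-97284405, plus strand). Its levels were 15.29, 15.73 and 16.50 at t=0, 15.75, 16.27 and 16.92 in HF, and 15.67, 16.01 and 16.19 in HF-Q. All 12 HF livers lay above the t=0 median and all 12 HF-Q livers lay below the HF median. It was 1.41-fold higher in HF than at t=0 (log2 fold change 0.50, SE 0.14, adjusted p = 0.0133). In HF-Q the mean was 1.29-fold lower than in HF (log2 fold change -0.36, SE 0.11), which missed the threshold after adjustment (adjusted p = 0.0909), and lower on 9 of 9 slides. Without HF replicate 1 the value was -0.42 (adjusted p = 0.0332) and without HF replicate 12 it was -0.41 (adjusted p = 0.0432), whereas without HF replicate 5 it was -0.36 (adjusted p = 0.102). HF-Q stood above t=0 by 0.14, which was not called (adjusted p = 0.48).

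**Figure D2:**
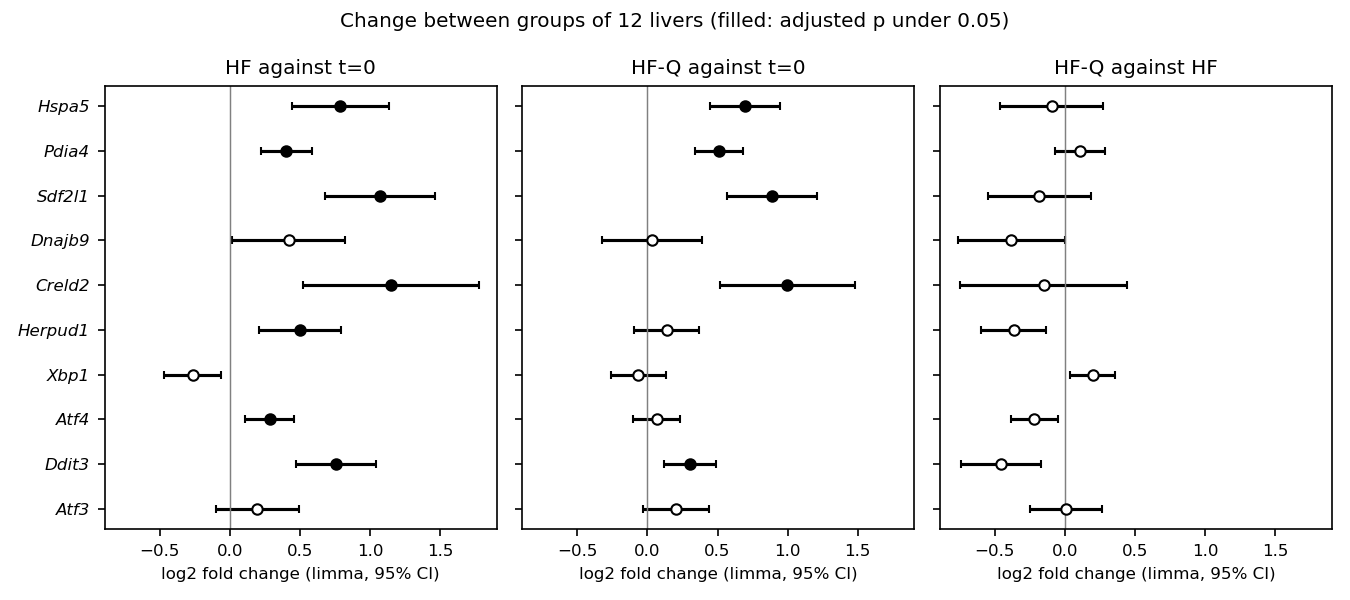
Log2 fold change (horizontal axis) of the 10 genes in 3 comparisons between groups of 12 livers, with 95% confidence intervals from limma. Filled points passed an adjusted p of 0.05. The 7 filled points of HF against t=0 are all above 0, as are the 5 of HF-Q against t=0, and none is filled for HF-Q against HF.

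Of the transcription factors, Ddit3 encodes CHOP, which is induced through PERK and ATF4 (probe A_52_P533146, mm8 chr10:126698411-126698714, plus strand). Its levels were 8.38, 8.82 and 9.26 at t=0, 8.78, 9.62 and 10.28 in HF, and 8.83, 9.08 and 9.55 in HF-Q. In HF 8 of 12 livers lay above the highest t=0 liver, in HF-Q 3 of 12 did, and no HF-Q liver reached the HF median. Ddit3 was 1.69-fold higher in HF than at t=0 (log2 fold change 0.76, SE 0.14, adjusted p = 0.000357), on 9 of 9 slides. It was 1.23-fold higher in HF-Q than at t=0 (log2 fold change 0.30, SE 0.09, adjusted p = 0.028), and with the slide as a block this value was 0.27 (adjusted p = 0.0603). HF-Q was 1.37-fold lower than HF (log2 fold change -0.46, SE 0.14), with an adjusted p of 0.0827. Without HF replicate 1 that difference was -0.53 (adjusted p = 0.0217), with all 36 arrays in one fit its adjusted p was 0.0407, and without HF replicate 5 it was -0.43 (adjusted p = 0.106). The SD of Ddit3 was 0.46 in HF against 0.23 in each of the other groups.

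Atf4 encodes the factor that PERK signalling raises mainly through translation (probe A_52_P139727, mm8 chr15:80083904-80083963, plus strand). Its mRNA levels were 9.90, 10.34 and 10.69 at t=0, 10.32, 10.64 and 10.95 in HF, and 10.03, 10.42 and 10.66 in HF-Q. The HF livers were higher, with 11 of 12 above the t=0 median, while HF-Q and t=0 covered much the same range. The rise in HF over t=0 was 1.22-fold (log2 fold change 0.28, SE 0.08, adjusted p = 0.0179), the smallest of the 7 called. HF-Q differed from HF by -0.22 (adjusted p = 0.171) and from t=0 by 0.07 (adjusted p = 0.664).

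Xbp1 encodes the factor made after splicing by IRE1, and it was the only gene of the 10 with a lower mean in HF than at t=0 (probe A_52_P185079, mm8 chr11:5424970-5425029, plus strand). A single probe gave 1 value per liver, so spliced and unspliced mRNA were not measured separately. Levels were 12.15, 12.97 and 13.34 at t=0, 12.27, 12.62 and 13.09 in HF, and 12.60, 12.83 and 13.14 in HF-Q. In HF 11 of 12 livers lay below the t=0 median, but t=0 replicate 4 was the lowest liver of all. The difference of HF from t=0 was -0.26 (SE 0.10, adjusted p = 0.057) and that of HF-Q from HF was 0.20 (SE 0.08, adjusted p = 0.212). Neither was called. The first passed the threshold after loess of the scanner intensities (-0.31, adjusted p = 0.0186), after quantile normalization (-0.31, adjusted p = 0.0221), with all 36 arrays in one fit (adjusted p = 0.0389), without t=0 replicate 4 (-0.33, adjusted p = 0.00373), without HF replicate 4 (adjusted p = 0.028) and without HF replicate 11 (adjusted p = 0.0443).

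Atf3, a stress-induced factor of the same family, was the gene nearest to background (probe A_52_P452689, mm8 chr1:192871283-192871342, minus strand). Its levels were 6.92, 7.33 and 8.21 at t=0, 7.03, 7.57 and 8.35 in HF, and 7.28, 7.59 and 8.00 in HF-Q, and the 3 ranges overlapped almost wholly. HF over t=0 was 0.20 (adjusted p = 0.338), HF-Q over t=0 was 0.21 (adjusted p = 0.255) and HF-Q over HF was 0.01 (95% confidence interval -0.25 to 0.27). The sign of that last value depended on the scaling of the arrays.

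The livers differed among themselves in the response as a whole. HF replicate 1 was the lowest HF liver for 8 of the 10 genes, and HF replicate 12 was among the 3 lowest for 7. On the array of HF replicate 1 the median Cy5 signal was 3.24 times background. It was 8.96 times background for HF-Q replicate 2 and at most 2.62 on every other array. Whether this bears on the low levels of HF replicate 1 was not tested. HF replicate 4 was the highest HF liver for 7 genes and among the 3 highest for all 10. HF replicate 5, with the pancreatic transcripts, was among the 3 highest HF livers for 3 genes. In HF-Q, replicate 11 was the lowest liver for 4 genes and among the 3 lowest for 7, and in t=0 replicate 4 was among the 3 highest for 7.

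After each group's mean was removed, 24 of the 45 pairs of the 10 genes were correlated over the 36 livers (adjusted permutation p under 0.05 over the 45 pairs), and the median Pearson r was 0.50. For Hspa5 the median r was 0.655 with the rest of the 10 genes and 0.005 with all 13041 other named genes. Of those 13041 genes, 433 had an r over 0.5 with Hspa5. The livers share a reference pool and slides, and with the slide means removed as well the strongest pairs changed little. Sdf2l1 and Creld2 gave r = 0.935 and Spearman's rho = 0.878 (permutation p = 1e-05, the smallest that 100000 permutations can give, adjusted p = 4.09e-05), with r = 0.932 after removal of slide means and 0.910 without the 2 livers farthest from the median of Sdf2l1. Within the groups their r was 0.864 at t=0, 0.985 in HF and 0.925 in HF-Q. Hspa5 and Creld2 gave r = 0.901 and rho = 0.862 (permutation p = 1e-05, adjusted p = 4.09e-05), 0.868 without the 2 farthest livers, and 0.727, 0.971 and 0.941 within t=0, HF and HF-Q. The 6 pairs of Hspa5, Sdf2l1, Creld2 and Pdia4 ran from 0.769 to 0.935, and the lowest value of any of them within a single group was 0.480. Without HF replicate 5, 24 pairs were called as well, and the r of Sdf2l1 with Creld2 was 0.932.

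Ddit3 was correlated with 7 of the other 9 genes. Its highest r was 0.745 with Dnajb9 (rho 0.715, permutation p = 1e-05), which was 0.648 without the 2 livers farthest from the median of Ddit3 and 0.565, 0.822 and 0.880 within t=0, HF and HF-Q. Within t=0, HF and HF-Q the r of Ddit3 was 0.412, 0.872 and 0.428 with Hspa5, and 0.618, 0.870 and 0.175 with Pdia4. It was 0.630, 0.870 and 0.399 with Creld2, 0.584, 0.841 and 0.452 with Sdf2l1, and 0.585, 0.912 and 0.609 with Herpud1. Dnajb9 with Herpud1 gave r = 0.717 (rho 0.737, permutation p = 1e-05) and 0.690 without the 2 farthest livers. Atf4 was correlated with 3 genes, namely Ddit3 (r = 0.538), Hspa5 (r = 0.50) and Dnajb9 (r = 0.443). Within t=0 these r were 0.124, -0.011 and -0.135, within HF 0.724, 0.785 and 0.750, and within HF-Q 0.720, 0.523 and 0.767. Without the 2 farthest livers the r of Hspa5 with Atf4 was 0.373. With Herpud1, Atf4 had an r of -0.477 at t=0, 0.750 in HF and 0.542 in HF-Q. The differences between groups in the r of Ddit3 and of Atf4 were not tested. Xbp1 and Atf3 were called with none of the other genes. The r of Xbp1 lay between -0.212 (with Ddit3) and 0.171 (with Hspa5), and that of Atf3 between -0.086 and 0.273.

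**Figure D3:**
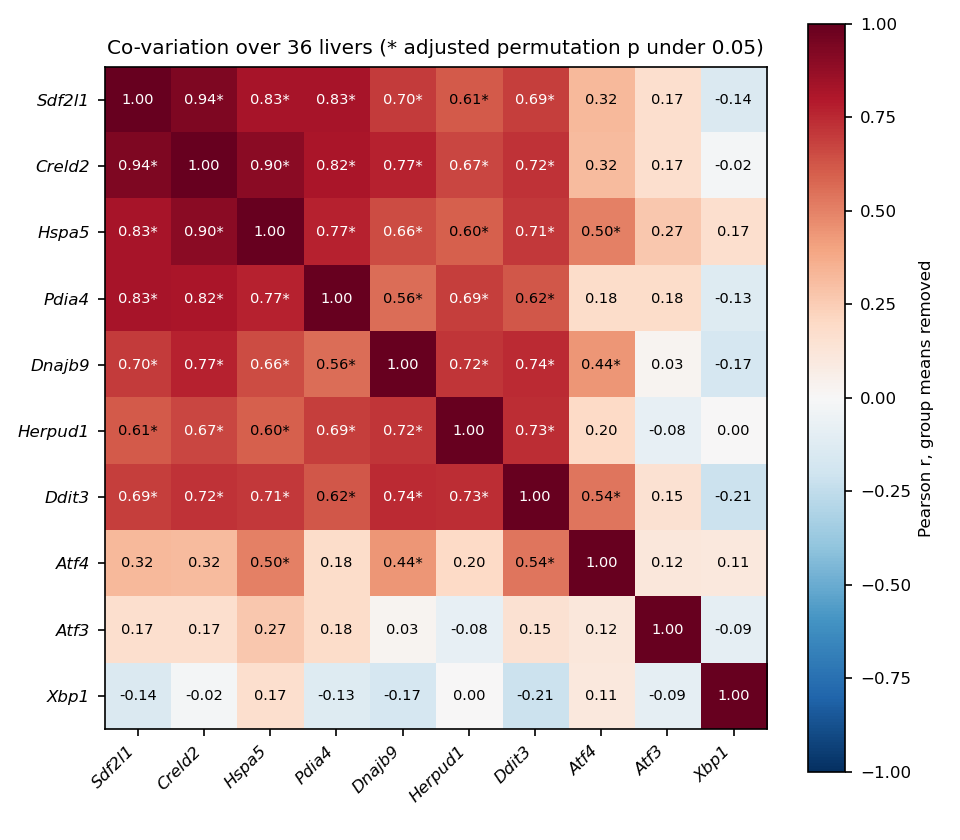
Pearson r between each pair of the 10 genes over 36 livers with group means removed, as colour and number. Stars mark an adjusted permutation p under 0.05. Sdf2l1, Creld2, Hspa5 and Pdia4 form a block of r from 0.769 to 0.935, and the rows of Atf3 and Xbp1 hold no star.

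**Figure D4:**
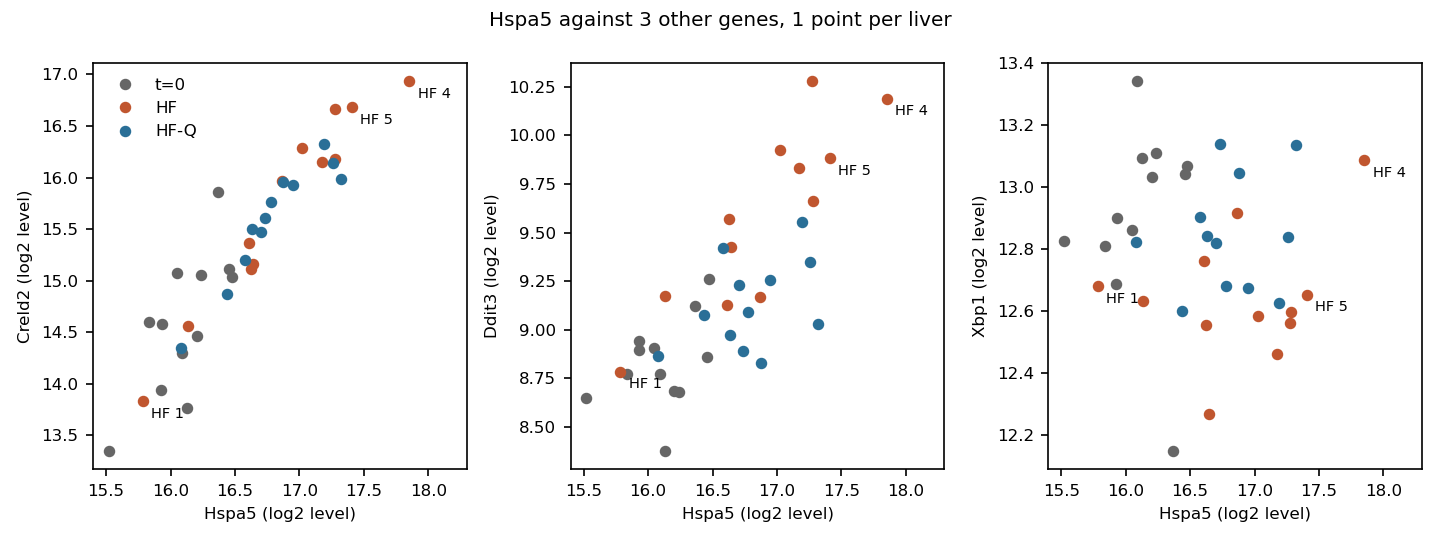
Log2 level of Creld2, Ddit3 and Xbp1 (vertical axes) against that of Hspa5 (horizontal axis), 1 point per liver, coloured by group, with HF replicates 1, 4 and 5 named. Creld2 follows Hspa5 in all 3 groups (r = 0.901), Ddit3 less closely (r = 0.708), and Xbp1 was not correlated beyond the threshold (r = 0.171). For Ddit3 the r with Hspa5 was 0.412 within t=0, 0.872 within HF and 0.428 within HF-Q.

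Over the 13041 other named genes, those whose level followed Hspa5 most closely across the 36 livers were Manf (r = 0.962), Hspa13 (0.913), Sec23b (0.909), Creld2 (0.901) and Nans (0.900). Manf encodes an ER-resident trophic factor, Hspa13 an Hsp70-related protein, Sec23b a coat protein of vesicles that leave the ER, and Nans a sialic acid synthase. For Manf the value was 0.952, 0.985 and 0.930 within t=0, HF and HF-Q. The lowest values were those of Garem1 (-0.750), Wdfy3 (-0.736) and Stat5b (-0.725). Sdf2l1 ranked 24th, Pdia4 41st, Ddit3 76th, Dnajb9 125th, Herpud1 190th and Atf4 436th by likeness to Hspa5, and Atf3 and Xbp1 ranked 1775th and 3136th. For Ddit3 the closest genes were Tspyl2 (r = 0.817), Gmppb (0.799), Piga (0.792), Cks1b (0.788) and Ppp1r14b (0.787), none of them one of the 10.

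Other genes of the ER folding and quality control pathways were counted in the same fits. Beside these counts, 10.9% of all probes were called higher and 10.4% lower in HF against t=0. In HF-Q against t=0 the shares were 6.62% and 5.3%, and between HF-Q and HF 2.36% were called. Of 20 other ER chaperones and folding enzymes, 9 rose in HF over t=0 and none fell, with a median log2 fold change of 0.18. Hyou1, a nucleotide exchange factor of BiP, rose by 0.72 (adjusted p = 0.000231), Manf by 0.65 (adjusted p = 0.00528) and Hsp90b1, the Hsp90 of the ER, by 0.57 (adjusted p = 0.000204). The lectin chaperones Calr and Canx gave 0.10 and 0.07 (adjusted p = 0.236 and 0.391). Of 18 genes of ER-associated degradation 10 rose and none fell, with Derl3, a channel component, at 1.40 (adjusted p = 0.0201) and the ubiquitin ligase Syvn1 at 1.01 (adjusted p = 0.00228). Of 16 genes of translocation into the ER 9 rose and none fell, by 0.21 to 0.34 on the log2 scale. The same 3 lists gave 9, 6 and 6 genes higher in HF-Q than at t=0, with Derl3 at 1.50 and Hyou1 at 0.87, and no gene of them was called between HF-Q and HF. Without HF replicate 5 the counts of HF over t=0 were 9, 11 and 9, and without HF-Q replicate 2 those of HF-Q over t=0 were 8, 4 and 6.

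Among 26 targets of ATF4 and CHOP, 10 rose in HF over t=0 and 1 fell, beside 10.9% and 10.4% of all probes. Fgf21, a hormone secreted by the liver, rose by 1.52 (adjusted p = 2.23e-05). Nupr1, a stress-induced nuclear protein, rose by 1.40 (SE 0.36, adjusted p = 0.00689), and its value without HF replicate 5 is not given here. The transfer RNA synthetases Wars, Cars and Aars rose by 0.42, 0.40 and 0.30, and the aminotransferase Gpt2 fell by 0.37. In HF-Q over t=0 6 of the targets rose, among them Nupr1 (0.69, SE 0.12) and Sesn2 (0.45), beside 6.62% of all probes called higher. Between HF-Q and HF only Vldlr, a lipoprotein receptor, was called, at 0.60 (adjusted p = 0.013), beside 1.49% of all probes called higher and 0.863% lower. Without HF replicate 5 there were 1 higher and 1 lower gene. Of 8 measured genes for the sensors, related membrane-bound factors and proteases, 1 rose in HF, Eif2ak3 (PERK) by 0.37 (adjusted p = 0.0215), beside 10.9% of all probes called higher, and Ern1 and Atf6 gave 0.06 and 0.14 (adjusted p = 0.535 and 0.16). Without HF replicate 5, 11 targets rose and 1 fell, and 2 genes of the sensor list rose. The median log2 fold change of the targets in HF over t=0 was 0.239 with that liver and 0.175 without it. None of 5 other eIF2 kinase, subunit and phosphatase genes was called in any comparison. Of 9 measured heat shock genes whose products work outside the ER, 7 rose in HF over t=0 (Hspa1a by 1.22, Hspb1 by 1.00), also without HF replicate 5, and 6 in HF-Q over t=0, beside 10.9% and 6.62% of all probes called higher. Those not called in HF were the mitochondrial chaperonin genes Hspd1 (0.02, adjusted p = 0.841) and Hspe1 (0.19, adjusted p = 0.0954), and in HF-Q these and the cytosolic Dnajb1 (0.25, adjusted p = 0.0918).

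**Figure D5:**
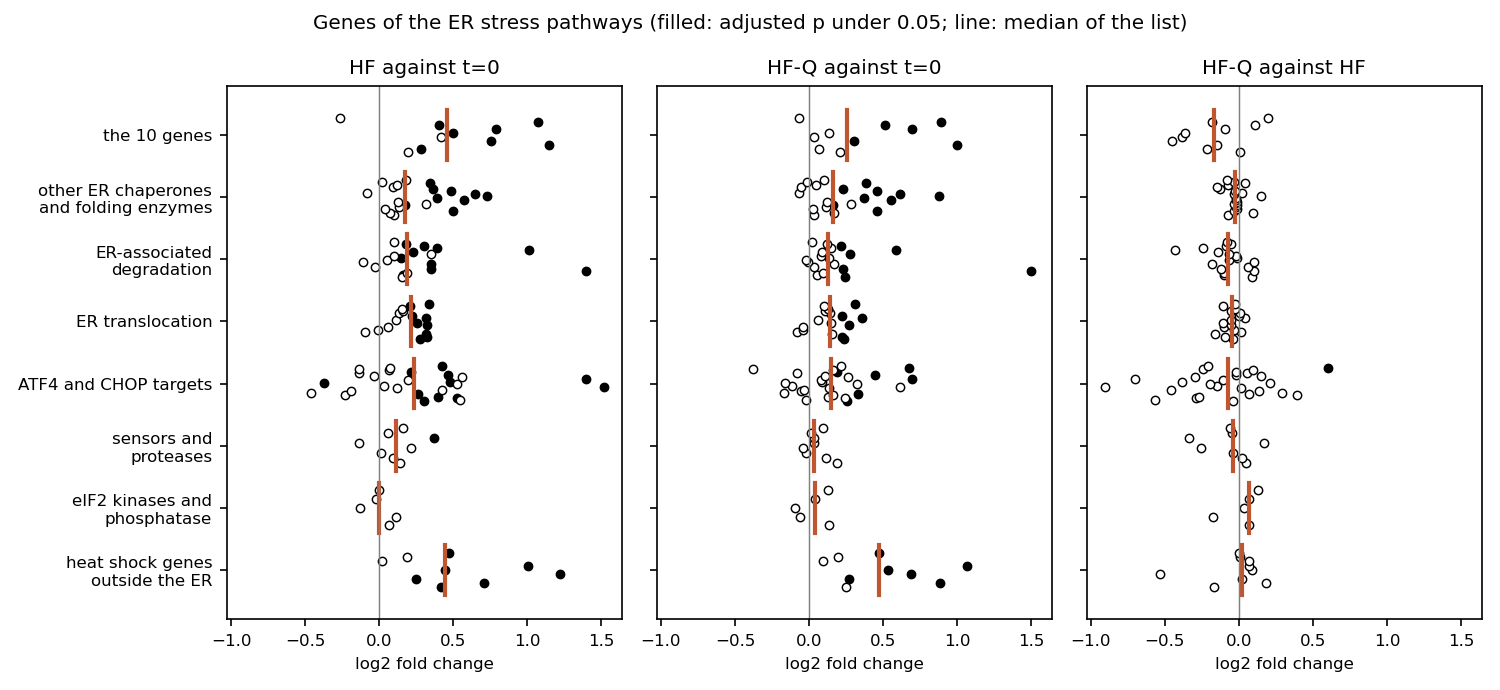
Log2 fold change (horizontal axis) of the measured genes of 8 lists in 3 comparisons, 1 point per gene, filled where the adjusted p was under 0.05, with the list median as a line. The filled points of the chaperone, degradation, translocation and heat shock lists all lie above 0 against t=0, and a single gene, Vldlr, is filled for HF-Q against HF.

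The ERSE letters were also set beside the changes of all measured genes. Of 25 genes in the table with ERSE or ERSE-II in the 250 bases before their start, 11 were higher in HF than at t=0 and none was lower, with a median log2 fold change of 0.28, and without HF replicate 5 there were 11 higher and 1 lower. Of all 13042 named genes 1744 were higher and 1001 lower, with a median of 0.02. Those called higher were Hspa5, Creld2 and Herpud1, themselves among the genes described here, with Hsp90b1, Pdia6, Derl3 and Syvn1. Acnat2 (0.62), Hnrnpa3 (0.35), Lgalsl (0.46) and Lrif1 (0.30) were called higher as well. The r of these last genes with Hspa5 was 0.385, 0.292, -0.231 and 0.258. Calr and Canx, with ERSE as well, were among those not called. The median r of the 25 genes with Hspa5 over the livers, Hspa5 itself left out, was 0.359, against 0.005 over all named genes. The 266 genes with TGACGTG and the 273 with TGATGNAA had median log2 fold changes of 0.04 and 0.03.

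Markers of other cell types were compared in the same fits. Beside the marker counts of HF against t=0, 10.9% of all probes were called higher and 10.4% lower. Between HF and t=0, 3 of 4 cholangiocyte markers rose (Sox9 by 0.64, Krt19 by 0.42 and Krt7 by 0.29), and their mean level ranged from 7.70 to 8.38 at t=0, from 8.18 to 8.90 in HF and from 7.94 to 8.37 in HF-Q. Of 5 markers of B and plasma cells, a cell type rich in ER, Jchain (0.74) and Ms4a1 (0.34) rose, with mean levels of 6.94 to 7.57 at t=0, 7.17 to 7.76 in HF and 7.26 to 7.87 in HF-Q. S100a9 of the neutrophil list (0.72) and Hba-a1 of the erythroid list (0.93) rose too. The other measured gene of each list was not called, with S100a8 at 0.285 and Alas2 at -0.14 (adjusted p = 0.0665 and 0.249). In HF-Q, Alas2 was lower than at t=0 (-0.26, adjusted p = 0.0172) while Hba-a1 was higher (1.21). Of the Kupffer cell markers 0 of 7 were called, and 1 of 6 hepatocyte markers, Cps1, fell by 0.32 in HF. Of 5 endothelial markers Pecam1 fell by 0.34 (adjusted p = 0.0036). The other 4 were not called, with Stab2 at -0.046 and Kdr, Lyve1 and Clec4g at 0.075 to 0.091. These marker counts of HF against t=0 were as large without HF replicate 5. Between HF-Q and HF, Sox9 was lower (-0.60, adjusted p = 0.00053) and Pecam1 higher (0.38, adjusted p = 0.00734). The other 3 cholangiocyte and 4 endothelial markers were not called there. Of all probes 1.49% were called higher and 0.863% lower in that comparison. Within the groups the mean of the B and plasma cell markers had an r of 0.006 with Hspa5 over the 36 livers, and that of the cholangiocyte markers -0.040, while the endothelial markers had -0.385 with Hspa5 and -0.155 with Ddit3, and Cfd, the one adipocyte marker in the table, had 0.217 and 0.374. The part of these cells in the changes was not tested.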

How the data were processed

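Liver RNA of 36 mice was measured on Agilent 2-colour arrays. The authors deposited scanner files with the median intensity of each spot and channel (Feature Extraction 10.5.1.1 per the labels) and a table of log2 values for 23256 spots. A rebuild from the deposited intensities showed that this table holds the log2 ratio of Cy5 over Cy3 plus the spot's median log2 Cy3 over the arrays, with each array set to one median and without background subtraction (median absolute difference 4.3e-07). The authors' marks (other values, 0 or 1) for signal above background and for saturation were used to describe the probes. Level differences thus rest on both channels, and low probes understate changes.

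Spots of a probe were averaged and each gene was represented by its brightest probe. Groups of 12 arrays were compared in limma by moderated two-sided tests (the functions lmFit and eBayes), with p-values adjusted over 21781 probes after Benjamini and Hochberg and a threshold of 0.05. Each sample is the liver of 1 mouse, and the number of arrays limits the precision. Correlations were computed over 36 livers with group means removed and tested by 100000 permutations within groups, two-sided. Every gene of the 10 was to be named, and from each pathway list up to 8 called genes per comparison with the largest change, plus the 5 highest and 3 lowest correlates of Hspa5 and the 5 highest of Ddit3. Genes named without being called (Calr, Canx, Ern1, Atf6), those named for their motif and the marker genes were added after their values were seen. The 10 genes and the lists were chosen with earlier results of these data known.

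Alternatives were loess of background-corrected scanner intensities (normexp, offset 50), median centring, quantile normalization, a filter at 3 times background, slide or replicate number as a block, the methods' t-test, all 36 arrays in one fit, the mean of a gene's probes and each array left out. Leaving out HF replicate 5 from the correlations, and HF replicate 5 with HF-Q replicate 2 from the comparison of HF-Q with HF, was added after the data had been seen. The fits were tested on simulated data. R 4.3.3, limma 3.58.1, Python 3.11.15, numpy 2.4.6 and matplotlib 3.10.9 were used.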

Additional observations from a re-analysis of the deposited data

How the results depend on the processing

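Between HF-Q and HF, 0 of the 10 genes were called, and the alternatives moved this count as follows. It was 1 (Ddit3) with all 36 arrays in one fit, and 0 to 2 when single arrays were left out, with 2 (Ddit3 and Herpud1) without HF replicate 1 and 1 (Herpud1) without HF replicate 12. With HF replicate 5 and HF-Q replicate 2 left out together it was 0. The counts against t=0 stayed at 7 to 8 for HF and 4 to 5 for HF-Q when single arrays were left out. The replicate numbers did not pair the livers: in the 3 comparisons 3, 4 and 4 of 12 same-numbered pairs correlated above 0.1. With the replicate block the counts were 0 for HF-Q against HF, 7 for HF against t=0 and 4 for HF-Q against t=0, where Ddit3 was lost (adjusted p = 0.0551). Ddit3 in HF-Q over t=0 was also lost with the slide as a block (0.0603), with all 36 arrays in one fit (0.117) and without HF-Q replicate 9 or 10 (0.0522 and 0.05).

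The sign of Atf3 in HF-Q against HF was not settled: -0.02 after loess of scanner intensities, -0.06 after quantile normalization, -0.01 with the slide as a block, and -0.04 to 0.08 with single arrays left out. That of Dnajb9 in HF-Q against t=0 ran from -0.03 to 0.10 with single arrays left out. Dnajb9 in HF over t=0 was called with the mean of its 3 probes (0.54, adjusted p = 0.0206). At 3 times background Atf3 had no value. Of 277 gene values under alternatives other than leaving out an array, 266 kept their sign and side of the threshold, and of 720 with an array left out, 696 did. The causes of these shifts were not tested. Of the pairs of genes, 24 to 27 were called under all alternatives tried. Dim probes, of which Atf3 is one, limit what can be seen of small changes.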

Other observations

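Clock genes had more calls between HF-Q and HF than any other list compared here. Of 12 clock genes 5 were higher in HF-Q (Ciart by 1.02, Dbp by 0.92 and Tef by 0.63 on the log2 scale, with Per3 and Nr1d2) and 2 were lower (Arntl, -1.0, and Clock, -0.46), and without HF replicate 5 the counts were 6 and 2. Of all probes 1.49% were called higher and 0.863% lower in this comparison. Between HF and t=0, 2 of the clock genes, Per3 and Bhlhe41, were lower and none was higher, beside 10.4% and 10.9% of all probes. Without HF replicate 5, 3 were lower and 2 higher. Within the groups, the r over the 36 livers was -0.115 between Arntl and Hspa5 and -0.069 between Arntl and Ddit3, while the mean of the 12 genes had 0.246 with Hspa5 and 0.235 with Ddit3.

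Of 8 feeding and fasting genes, Pnpla3 (0.99) and Fasn (0.84) were higher in HF than at t=0, and Angptl4 (-0.63) and Ppargc1a (-0.43) were lower, beside 10.9% and 10.4% of all probes called higher and lower, while none of them was called between HF-Q and HF or between HF-Q and t=0. Their mean had an r of -0.093 with Hspa5 over the livers within the groups. Without HF replicate 5, 2 were higher and none was lower in HF.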
